A study of Mus musculus with 23 samples.

Results

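Type I interferon-stimulated genes are the genes that cells switch on after interferon-alpha or interferon-beta binds the receptor made of Ifnar1 and Ifnar2. The kinases of that receptor activate Stat2, which acts with Irf9 in the complex ISGF3 at interferon response elements near the genes, and the products block viruses at many steps or feed back on the pathway. Parts of the same programme also answer to interferon-gamma and IL-27, and in tumours the programme is used as a readout of interferon reaching tumour and immune cells. A list of 39 well-known mouse members is described here: each symbol matched 1 Ensembl identifier among the 55401 genes of the deposited table. All 39 passed the filter on low counts, none had a count of 0 in any library, and the lowest single count was 8.

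The values come from 23 bulk RNA libraries of tumours of TC2Ras cells, a TRAMP-C2 mouse prostate adenocarcinoma line that carries an activated H-Ras, grown under the skin of male C57/BL6 mice aged 8 to 10 weeks. IL27v tumours (11 libraries) came from mice whose tibialis anterior muscle had received a plasmid for IL-27 joined to the peptide pepL, and EV tumours (12 libraries) from mice given the empty plasmid, at 10 µg per muscle with ultrasound in both cases. The plasmid went into the leg and not into the tumour. Sections of both kinds of tumour were exposed ex vivo to cabozantinib (an inhibitor of MET, VEGF receptors and other kinases), docetaxel (a taxane that stabilises microtubules), an antibody to PD-L1, cabozantinib plus IL-27, IL-27 alone, or media alone. The sources used here give neither doses nor durations for these exposures. That makes 12 groups of 2 libraries, apart from IL27v tumours with IL-27 ex vivo, where the 1 library is labelled replicate 2. A library is named below by its vector, its ex vivo condition and its replicate number, such as IL27v media 2. The labels do not tie replicates to animals or to tumours, so every p-value reflects the spread between these samples alone, which may be technical.

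Library totals lay between 47641781 and 83088346 estimated counts, and levels are given in CPM, counts scaled to a common library total with TMM factors, of which 1 stood for 36.3 to 86.5 counts. A single gene model, CT010467.1, took 27.2% of the counts of IL27v docetaxel 1. Several libraries carried transcripts of other tissues. The 13 skeletal muscle markers summed to 502 to 845 CPM in IL27v libraries other than IL27v docetaxel 1, which had 25.2 CPM. In EV libraries they summed to 1.44 to 19.1 CPM, apart from EV anti-PD-L1 2 and both EV cabozantinib plus IL-27 libraries, which had 419 to 489.9 CPM. The 10 keratinocyte markers summed to 11.02 to 5090.3 CPM in IL27v libraries and 74.7 to 1874 CPM in EV libraries, highest under docetaxel with both vectors. Of the tumour label itself, the 6 epithelial markers (Epcam, Cdh1, Krt8, Krt18, Krt19, Cldn4) were low, with sums of 3.84 to 189 CPM in IL27v and 9.74 to 144 CPM in EV libraries, and Epcam, Cdh1, Krt18 and Cldn4 were at 0 in at least 1 library. The 8 fibroblast markers summed to 1431 to 8461 CPM in IL27v and 2577 to 5191 CPM in EV libraries. In bulk samples, fewer cells of a type and less RNA per cell cannot be told apart.

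The promoters are shown first because the DNA element that ISGF3 reads lies there. RefSeq promoter windows (build GRCm38.p6, 250 bases before to 50 after the start site) were matched by symbol for 28 of the 39 genes. No entry was matched for Oas2, Mx2, Ifi27l2a, Rtp4, Ifi204, Dhx58, Mx1, Usp18, Parp14, Parp9 and Zbp1. The letters searched, on both strands, were GAAA, any 2 bases, then GAAA, the core of an interferon response element, with overlapping matches counted separately. They occurred in 15 of the 28 genes (53.6%), against 3.99% of all 27025 genes with a window. Isg15 had 3 overlapping matches, and Ifit1, Ifit3, Ifit3b, Oas1a, Oas1g and Bst2 had 2 each. The windows of 8 genes are printed 5′ to 3′ along the gene, with the matches in capitals, to show how the arrangement differs between families. In the pair Oas1a and Oas1g the matches overlap, and their first bases lie 20 and 14 bases (Oas1a) or 18 and 12 bases (Oas1g) before the start site. In Ifit1, Ifit3 and Ifit3b a pair of separate matches lies further upstream on the other strand.
Isg15: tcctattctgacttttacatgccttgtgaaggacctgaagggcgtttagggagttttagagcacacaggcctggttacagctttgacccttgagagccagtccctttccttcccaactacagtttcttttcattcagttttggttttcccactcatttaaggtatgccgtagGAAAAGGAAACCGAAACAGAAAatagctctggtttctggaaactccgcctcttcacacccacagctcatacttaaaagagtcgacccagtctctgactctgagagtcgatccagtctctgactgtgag
Ifit1: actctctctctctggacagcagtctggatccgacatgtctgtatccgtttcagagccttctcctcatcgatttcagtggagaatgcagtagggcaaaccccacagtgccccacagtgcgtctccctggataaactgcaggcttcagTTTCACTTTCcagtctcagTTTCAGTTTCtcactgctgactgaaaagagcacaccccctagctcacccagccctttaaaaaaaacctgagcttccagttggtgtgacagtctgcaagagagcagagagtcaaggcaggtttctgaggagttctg
Ifit3: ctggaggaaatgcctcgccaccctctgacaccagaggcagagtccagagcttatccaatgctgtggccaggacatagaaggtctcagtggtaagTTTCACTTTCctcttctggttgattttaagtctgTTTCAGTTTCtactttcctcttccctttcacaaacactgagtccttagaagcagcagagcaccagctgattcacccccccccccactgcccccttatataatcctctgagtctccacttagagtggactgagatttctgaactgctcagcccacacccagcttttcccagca
Ifit3b: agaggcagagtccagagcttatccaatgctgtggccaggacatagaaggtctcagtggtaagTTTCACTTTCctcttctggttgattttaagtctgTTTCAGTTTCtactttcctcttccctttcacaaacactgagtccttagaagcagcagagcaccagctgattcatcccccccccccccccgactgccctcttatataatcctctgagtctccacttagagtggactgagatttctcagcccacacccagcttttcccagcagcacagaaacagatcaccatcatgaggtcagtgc
Oas1a: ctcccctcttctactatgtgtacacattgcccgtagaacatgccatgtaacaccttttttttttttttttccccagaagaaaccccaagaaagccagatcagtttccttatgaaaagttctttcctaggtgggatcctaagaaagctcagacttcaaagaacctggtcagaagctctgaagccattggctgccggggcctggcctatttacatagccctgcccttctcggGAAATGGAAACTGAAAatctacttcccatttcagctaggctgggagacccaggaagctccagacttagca
Oas1g: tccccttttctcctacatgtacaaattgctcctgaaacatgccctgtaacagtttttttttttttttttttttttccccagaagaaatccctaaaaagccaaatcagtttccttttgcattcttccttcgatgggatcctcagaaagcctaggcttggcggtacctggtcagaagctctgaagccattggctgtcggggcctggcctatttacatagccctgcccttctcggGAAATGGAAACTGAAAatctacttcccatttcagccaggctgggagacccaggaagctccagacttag
Rsad2: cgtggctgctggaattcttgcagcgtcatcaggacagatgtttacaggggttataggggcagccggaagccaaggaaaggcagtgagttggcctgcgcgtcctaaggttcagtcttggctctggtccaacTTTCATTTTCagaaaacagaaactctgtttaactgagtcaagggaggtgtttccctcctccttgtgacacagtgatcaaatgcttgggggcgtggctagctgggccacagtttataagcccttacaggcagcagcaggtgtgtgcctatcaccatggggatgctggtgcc
Bst2: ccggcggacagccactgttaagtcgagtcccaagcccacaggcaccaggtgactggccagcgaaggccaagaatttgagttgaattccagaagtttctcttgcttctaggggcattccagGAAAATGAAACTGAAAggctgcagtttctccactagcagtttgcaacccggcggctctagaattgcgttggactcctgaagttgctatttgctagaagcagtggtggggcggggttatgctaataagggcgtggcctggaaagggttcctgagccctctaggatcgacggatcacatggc
These windows lie at chr4:156200769-156201068 (Isg15, minus strand), chr19:34640639-34640938 (Ifit1, plus strand), chr19:34583279-34583578 (Ifit3, plus strand), chr19:34607707-34608006 (Ifit3b, plus strand), chr5:120907476-120907775 (Oas1a, minus strand), chr5:120887564-120887863 (Oas1g, minus strand), chr12:26456403-26456702 (Rsad2, minus strand) and chr8:71537423-71537722 (Bst2, minus strand). Ifit3 and Ifit3b are near copies. Their windows were 99.6% identical over 260 aligned bases and their transcripts 98.0% identical over 1697. For Oas1a and Oas1g the transcripts were 97.5% identical over 1860 bases, so the division of reads within each pair is uncertain. The 15 genes with a match had highest-to-lowest library ratios of 4.90 to 127 (median 34.0), and the 13 without had ratios of 3.97 to 307 (median 25.7). A match is a description of the letters in the window, and the absence of one says nothing of binding elsewhere.

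The 39 genes differed widely between libraries, also between libraries of 1 group. Their summed level ran between 261 CPM (IL27v anti-PD-L1 1) and 2827 CPM (IL27v media 2). IL27v media 2 was the highest library for 30 of the 39 genes, EV cabozantinib plus IL-27 2 for 5 (Mx2, Ifi44, Ddx58, Dtx3l and Samd9l), IL27v cabozantinib 2 for 3 (Irf7, Bst2 and Ifi27l2a) and IL27v media 1 for Eif2ak2. At the low end IL27v cabozantinib 1 was the lowest library for 18 genes and IL27v anti-PD-L1 1 for 8. By the median level of the 39 genes the leading 6 libraries were IL27v media 2 (61.5 CPM), EV cabozantinib plus IL-27 2 (41.5), IL27v cabozantinib plus IL-27 1 (34.8), IL27v cabozantinib 2 (29.5), IL27v cabozantinib plus IL-27 2 (23.6) and IL27v IL-27 2 (22.05). Those 6 were also the leading 6 for 16 of the genes taken one by one, and at least 5 of them were for 33. The high libraries came from both vectors and from conditions with and without ex vivo IL-27.

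**Figure D1:**
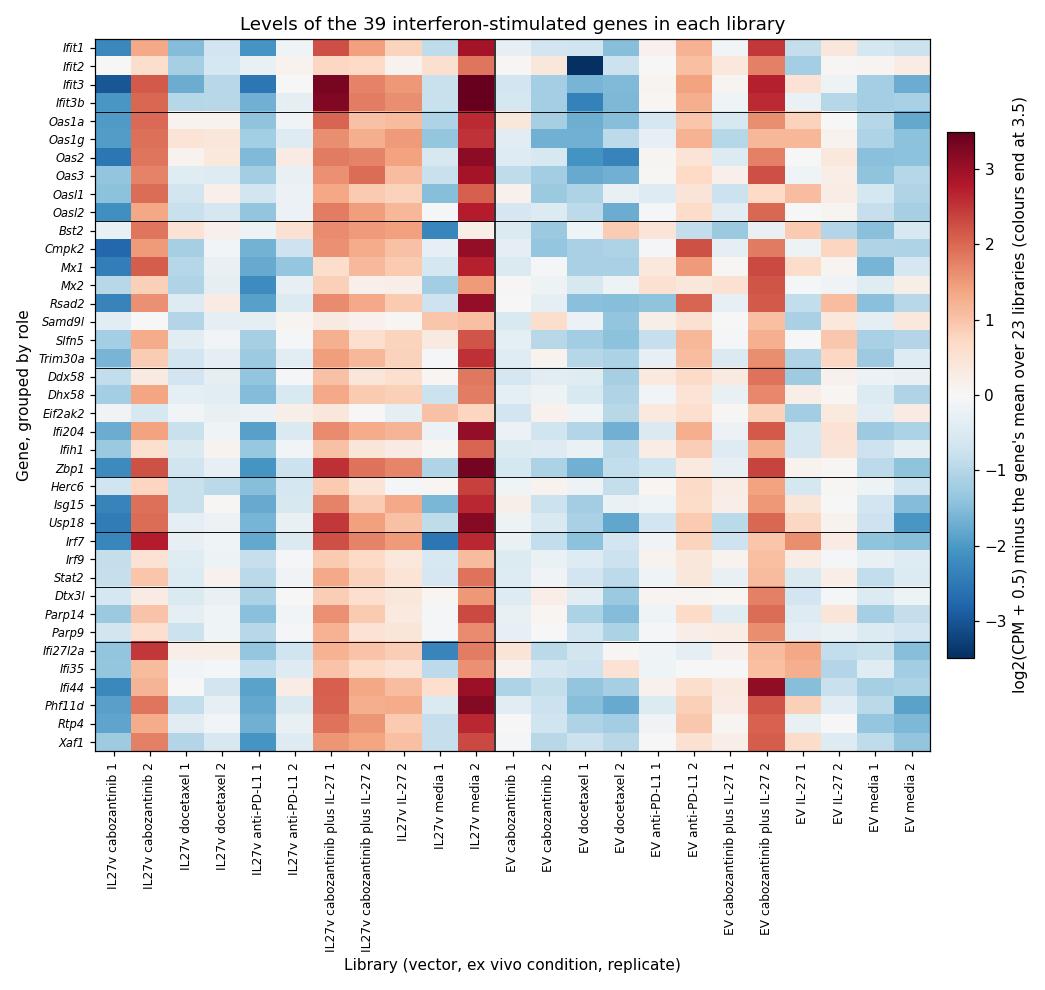
Each row is 1 of the 39 genes, grouped by role, and each column 1 library, IL27v left of the line and EV right of it; colour is log2(CPM + 0.5) minus the gene's mean over the 23 libraries. IL27v media 2 is red down nearly the whole column while its replicate IL27v media 1 is not, and IL27v cabozantinib shows the same split.

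The summed level of the 39 genes in media was 530.0 and 2827 CPM in IL27v tumours, against 341 and 379.7 CPM in EV tumours. Under cabozantinib it was 263 and 1385 CPM in IL27v against 442 and 467 CPM in EV libraries. With docetaxel the sums were 377 and 476 CPM in IL27v against 315 and 286 CPM in EV. With anti-PD-L1 the order was the other way, at 261 and 510.0 CPM in IL27v against 553 and 968 CPM in EV. Cabozantinib plus IL-27 gave 1675 and 1147 CPM in IL27v against 531 and 1842 CPM in EV, and ex vivo IL-27 gave 975 CPM in the only IL27v library against 567 and 633 CPM in EV. The sums of IL27v and EV libraries did not overlap in media, docetaxel, anti-PD-L1 and IL-27, and did overlap in the other conditions.

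**Figure D2:**
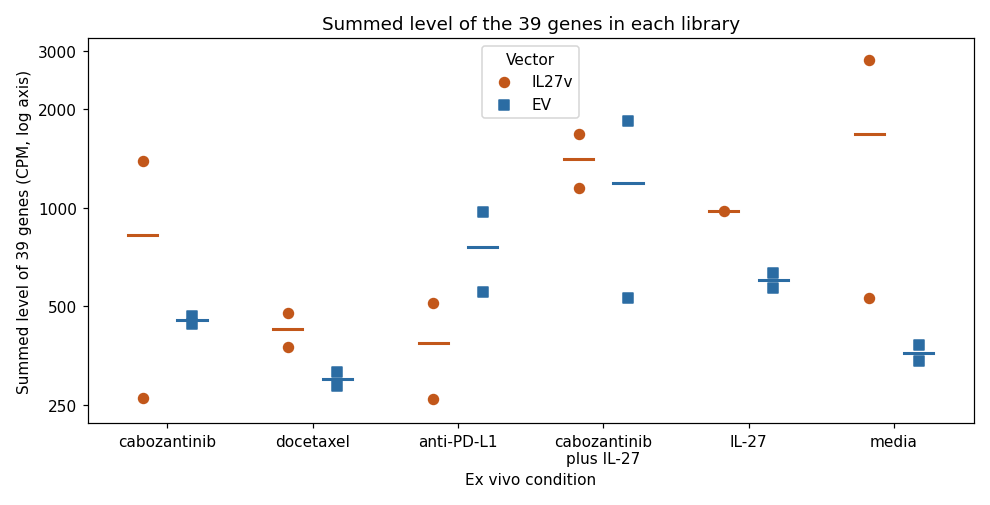
Points are the summed CPM of the 39 genes in each library on a log axis, by ex vivo condition, with IL27v left of EV and a bar at the mean of each group. In media the IL27v libraries stand at 530.0 and 2827 CPM and the EV libraries at 341 and 379.7 CPM.

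Replicates stood far apart in several groups. On a log2 scale the median level of the 39 genes had a within-group SD of 1.12, against an SD of 0.83 between the 12 group means. For 37 of the 39 genes taken singly the within-group SD was the larger. A mean of 2 libraries varies less than a single library, so these SDs are not like for like. The share over all genes was not computed. In IL27v media, replicate 2 was above replicate 1 for 38 genes, by a median of 9.47-fold. In IL27v cabozantinib the same held for 38 genes with a median of 10.3-fold, and in EV cabozantinib plus IL-27 for 39 genes with a median of 3.88-fold. The exception in both IL27v pairs was Eif2ak2, at 0.81 and 0.73 times the level of replicate 1. The closest pairs were IL27v docetaxel, with 1 gene differing over 2-fold, and IL27v cabozantinib plus IL-27 and EV media, with 4 each. Muscle markers stood at 25.2 CPM in IL27v docetaxel 1 and 813 CPM in IL27v docetaxel 2.

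**Figure D3:**
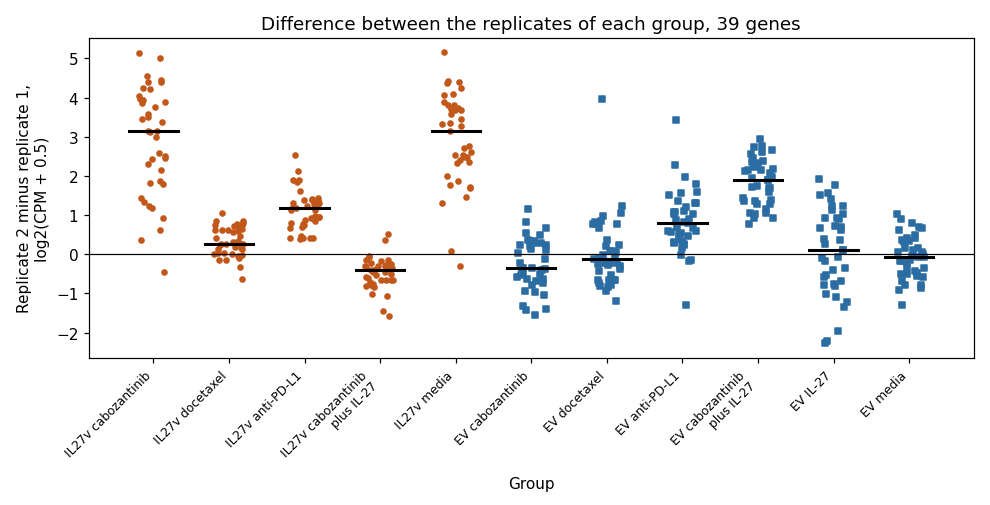
Each point is 1 gene's replicate 2 minus replicate 1 difference in log2(CPM + 0.5) within a group, with a bar at the median; IL27v groups are on the left and EV groups on the right. All but 1 of the points of IL27v cabozantinib and IL27v media lie above 0, and all points of EV cabozantinib plus IL-27 do.

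The IFIT genes encode proteins that bind viral RNA and hold back its translation. Ifit3, which stabilises the IFIT complex, stood at 1.78 and 80.3 CPM in cabozantinib, 4.99 and 8.89 in docetaxel, 2.65 and 17.7 in anti-PD-L1, 180.4 and 59.9 in cabozantinib plus IL-27, 51.7 in IL-27 and 10.1 and 227 CPM in media in IL27v tumours. In EV tumours Ifit3 stood at 10.96 and 7.49 CPM in cabozantinib, 5.43 and 5.70 in docetaxel, 18.9 and 47.8 in anti-PD-L1, 19.0 and 119 in cabozantinib plus IL-27, 25.4 and 15.7 in IL-27 and 7.45 and 4.95 CPM in media. Its highest library was 127 times its lowest, and in media IL27v lay wholly above EV. Ifit1, a sensor of RNA caps, ran between 2.56 and 109 CPM (median 12.7) in IL27v and between 4.74 and 80.8 CPM (median 10.3) in EV libraries. Ifit3b, the near copy of Ifit3, ran between 0.81 and 63.5 CPM (median 3.79) in IL27v and between 0.55 and 32.5 CPM (median 2.61) in EV. Ifit2 had 1 library far below the rest. It stayed between 11.9 and 102 CPM (median 30.2) in IL27v and between 11.9 and 94.0 CPM in EV libraries other than EV docetaxel 1, where 39 counts made 0.57 CPM, against 970 counts in EV docetaxel 2. In the same EV docetaxel libraries Ifit3b was at 0.55 and 1.31 CPM, its lowest library also being EV docetaxel 1, while Ifit3 was at 5.43 and 5.70 and Ifit1 at 8.505 and 4.74 CPM.

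The OAS genes encode enzymes that make 2′-5′ oligoadenylate, the activator of RNase L, and their relatives. Oas3 in media stood at 2.26 and 34.9 CPM in IL27v against 1.28 and 1.86 CPM in EV tumours. It was at 1.30 and 15.4 CPM in IL27v cabozantinib against 2.08 and 1.53 CPM in EV cabozantinib, and at 3.01 and 2.97 CPM in IL27v docetaxel against 0.90 and 0.98 CPM in EV docetaxel. Under anti-PD-L1 Oas3 was at 1.54 and 3.46 CPM in IL27v against 4.33 and 7.13 CPM in EV libraries. IL27v thus lay wholly above EV in media and docetaxel and wholly below in anti-PD-L1. Oas2 ran between 0.20 and 34.6 CPM (median 4.69) in IL27v and between 0.30 and 13.0 CPM (median 2.41) in EV. In docetaxel Oas2 was at 3.89 and 4.69 CPM in IL27v against 0.43 and 0.30 CPM in EV libraries, with no overlap. Oas1a and Oas1g reached 40.9 and 16.5 CPM, and the OAS-like genes Oasl1 and Oasl2 reached 45.7 and 176 CPM, all in IL27v media 2.

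**Figure D4:**
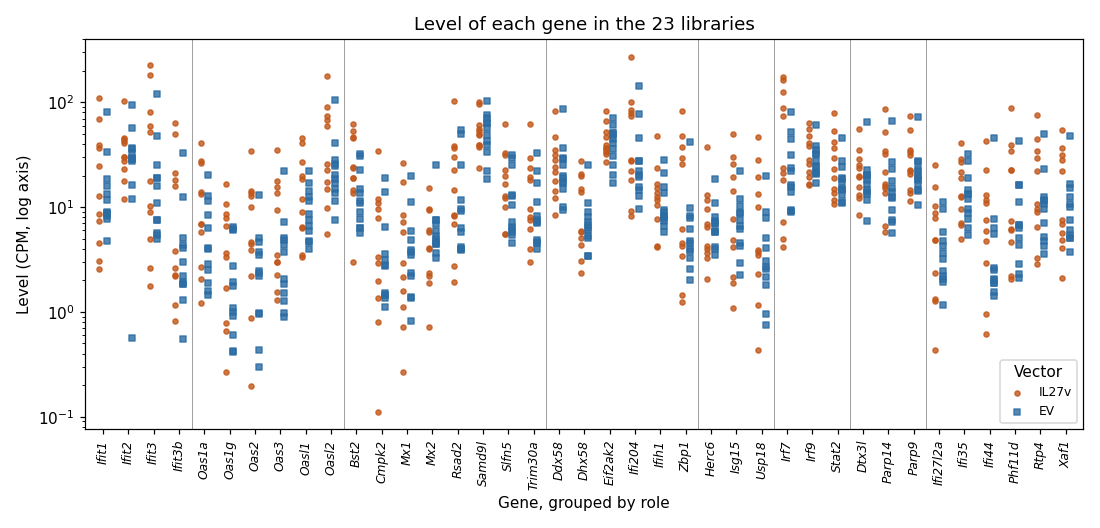
Each column is 1 gene, grouped by role, and each point its CPM in 1 library on a log axis, with 11 IL27v libraries left and 12 EV libraries right. IL27v and EV points overlap in every column; Irf9, Eif2ak2 and Samd9l have the smallest highest-to-lowest ratios and Cmpk2 the largest.

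Among other antiviral effectors Rsad2 (viperin, which makes a chain-terminating nucleotide) ran between 1.95 and 104 CPM (median 14.6) in IL27v and between 3.88 and 54.4 CPM (median 7.74) in EV libraries. Cmpk2, a mitochondrial nucleotide kinase encoded beside Rsad2 on chromosome 12, had the widest range of all 39 genes at 307-fold, with 8 counts in IL27v cabozantinib 1 and 2303 in IL27v media 2. The dynamin-like GTPase Mx1, which blocks influenza virus but is defective in most laboratory strains, ran between 0.27 and 26.4 CPM (median 2.94) in IL27v and between 0.82 and 19.9 CPM (median 3.62) in EV. The annotation lists its neighbour Mx2 as a polymorphic pseudogene, and Mx2 reached 15.2 CPM in IL27v and 25.3 CPM in EV libraries. Trim30a and Slfn5 reached 62.0 and 61.5 CPM in IL27v media 2. Samd9l, a restriction factor of poxviruses, was among the steadiest, between 23.8 and 102 CPM in IL27v and between 18.5 and 102 CPM in EV.

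Bst2 (tetherin, which holds budding virions at the cell surface) followed a different order of libraries. It stood at 13.6 and 62.2 CPM in cabozantinib, 23.5 and 18.8 in docetaxel, 14.5 and 24.0 in anti-PD-L1, 53.4 and 46.9 in cabozantinib plus IL-27, 45.3 in IL-27 and 3.00 and 19.0 CPM in media in IL27v tumours. In EV tumours Bst2 stood at 11.4 and 6.38 CPM in cabozantinib, 14.7 and 30.9 in docetaxel, 22.6 and 8.90 in anti-PD-L1, 6.36 and 13.6 in cabozantinib plus IL-27, 31.8 and 7.78 in IL-27 and 5.67 and 10.9 CPM in media. Under cabozantinib and under cabozantinib plus IL-27 both IL27v values of Bst2 lay above both EV values, while IL27v media 2, the top library for most of the set, was at 19.0 CPM. Bst2 has 55.3% GC. The slope of level on GC content over genes was -0.80 log2 units per 10% GC in IL27v media 1, the lowest library for Bst2. It was 0.51 in IL27v cabozantinib 2, the highest, 0.20 in IL27v cabozantinib plus IL-27 1, the next, and 0.68 in EV IL-27 1. The part of GC content in this order was not tested.

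Of the nucleic acid sensors, Ddx58 (RIG-I, which detects viral RNA ends) in media stood at 24.1 and 83.5 CPM in IL27v against 19.9 and 19.0 CPM in EV tumours, and peaked at 86.4 CPM in EV cabozantinib plus IL-27 2. Ifih1 (MDA5, a sensor of long double-stranded RNA) ran between 4.20 and 48.1 CPM in IL27v and between 5.77 and 28.0 CPM in EV libraries, and their regulator Dhx58 (LGP2) ran between 2.35 and 27.6 CPM in IL27v and between 3.40 and 25.3 CPM in EV. Zbp1, a sensor of Z-form nucleic acids that can trigger necroptosis, stood in media at 3.43 and 82.2 CPM in IL27v against 3.77 and 2.54 CPM in EV tumours, where the groups overlapped. Ifi204, a DNA sensor of the PYHIN family, had the highest single level of the set, 273 CPM in IL27v media 2. Eif2ak2 (PKR, which stops translation on double-stranded RNA) in media was at 82.4 and 67.0 CPM in IL27v against 30.7 and 49.0 CPM in EV tumours, with no overlap, and its highest-to-lowest ratio was only 4.90.

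Isg15, a ubiquitin-like modifier, stood at 1.09 and 29.8 CPM in cabozantinib, 4.17 and 7.64 in docetaxel, 1.87 and 4.90 in anti-PD-L1, 26.0 and 14.3 in cabozantinib plus IL-27, 19.5 in IL-27 and 2.14 and 49.3 CPM in media in IL27v tumours. In EV tumours Isg15 stood at 8.70 and 4.22 CPM in cabozantinib, 2.94 and 6.23 in docetaxel, 6.65 and 12.04 in anti-PD-L1, 8.85 and 22.2 in cabozantinib plus IL-27, 10.2 and 7.58 in IL-27 and 4.54 and 2.27 CPM in media. Of the IL27v media values of Isg15, 1 lay below and 1 above both EV media values. Usp18, which removes Isg15 and shuts down the receptor, ran between 0.43 and 46.4 CPM (median 3.90) in IL27v and between 0.75 and 19.9 CPM (median 2.88) in EV libraries. Herc6, the mouse ligase that attaches Isg15, ran between 2.05 and 37.2 CPM in IL27v and between 3.51 and 18.6 CPM in EV.

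The transcription factors of the response differed in spread. Irf7, the amplifier of interferon-alpha transcription, stood at 4.94 and 176 CPM in cabozantinib, 21.1 and 23.4 in docetaxel, 7.14 and 17.97 in anti-PD-L1, 125 and 87.5 in cabozantinib plus IL-27, 73.3 in IL-27 and 4.12 and 164 CPM in media in IL27v tumours. In EV tumours Irf7 stood at 21.9 and 13.9 CPM in cabozantinib, 9.21 and 16.1 in docetaxel, 23.8 and 44.9 in anti-PD-L1, 15.4 and 51.7 in cabozantinib plus IL-27, 80.4 and 31.5 in IL-27 and 9.42 and 8.92 CPM in media. Irf7 was lower in IL27v media 1 than in either EV media library. Irf7 has 55.4% GC. In IL27v media 1 the 16 genes with at least 50% GC differed from the other 23 by -0.99 log2 units, each relative to its mean. The part of GC content in the low values of that library was not tested. Stat2 and Irf9, which act together in the ISGF3 complex, ranged less. In media Stat2 was at 13.8 and 79.3 CPM in IL27v against 11.2 and 14.7 CPM in EV, and Irf9 had the smallest highest-to-lowest ratio of the set at 3.97. Parp9, Parp14 and the ubiquitin ligase Dtx3l, partners in ADP-ribosylation, reached 73.6, 86.7 and 64.9 CPM. Parp9 and Dtx3l overlap on opposite strands of chromosome 16 in the annotation, and whether counting used strand is not stated, so their separate values are uncertain.

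Of the remaining genes Ifi27l2a, of the interferon-alpha-inducible 27 family, stood in media at 0.43 and 15.5 CPM in IL27v against 2.18 and 1.16 CPM in EV tumours, and was highest at 25.1 CPM in IL27v cabozantinib 2. Ifi44 reached 42.3 CPM in IL27v and 45.3 CPM in EV libraries, and the highest-to-lowest ratios of Ifi35, Rtp4, Xaf1 and Phf11d were 8.37, 26.3, 25.7 and 42.9. Per kilobase of annotated exon the median levels of Bst2, Isg15 and Ifi27l2a over the 23 libraries were 16.3, 10.0 and 9.09 CPM per kilobase, and those of Oas3 and Cmpk2 were 0.49 and 0.70.

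The first comparison asked whether tumours of IL27v mice carried more of this programme than tumours of EV mice. Averaged over the 6 ex vivo conditions the fitted log2 difference, IL27v minus EV, was positive for 38 of the 39 genes, Mx2 being the exception, with a median of 0.71 beside 0.01 over all genes tested. No gene of the 39 passed an adjusted p of 0.05 in edgeR's quasi-likelihood test, in which 2.95% of the 24440 genes tested were called. Unadjusted, 15 of the 39 had p under 0.05 (14.5% of all genes), all positive. DESeq2, which called 8.03% of all genes, called 4: Oas2, Oas3, Bst2 and Ifit3b. The smallest p in edgeR belonged to Oas2 (1.79 ± 0.53 SE, adjusted p = 0.0839), Oas3 (1.26 ± 0.42, adjusted p = 0.134) and Bst2 (1.03 ± 0.35, adjusted p = 0.137). By role the median difference was 1.21 for the 6 OAS genes, 0.86 for the 4 IFIT genes, 0.60 for the 3 transcription factors and 0.39 for the 6 sensors. Over all libraries the IL27v and EV values overlapped for each of the 39 genes, as for nearly all genes tested. All IL27v values lay above all EV values for 0.0286% of all genes and below for 0.0245%. Without IL27v media 1 the fitted difference was 1.89 for Oas2 and 1.36 for Oas3, and without IL27v cabozantinib 1 that of Oas2 was 1.96. The same test called all 13 skeletal muscle markers, 6 of 10 keratinocyte markers and 4 of 5 erythroid markers higher in IL27v. Erythroid markers summed to 20.7 to 1576 CPM in IL27v and 10.1 to 81.3 CPM in EV libraries. With the summed level of the muscle markers as a covariate in an additive model the median difference of the 39 genes was -0.07, with 17 positive, against 0.75 in the additive model without it. Muscle level largely followed the vector, with all 13 markers called higher in IL27v. The exceptions were IL27v docetaxel 1, low in muscle, and EV anti-PD-L1 2 and EV cabozantinib plus IL-27 1 and 2, high in it. The 39 genes summed to 377, 968, 531 and 1842 CPM in these, in that order. With so few exceptions that fit separates muscle from vector poorly, and the part of muscle in the difference was not tested otherwise. The part of keratinocytes and erythroid cells was not tested.

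In media alone the difference was larger and less even. All 39 genes had a positive fitted difference, with a median of 2.71, and 30 had p under 0.05 (9.04% of all genes), yet none was called by edgeR, which called 0% of all genes in this comparison. For 23 of the genes (17.8% of all genes tested) both IL27v media libraries lay above both EV media libraries, and for 16 the groups overlapped. The smallest p were those of Slfn5 (2.71 ± 0.83 SE, adjusted p = 0.242), Rtp4 (3.39 ± 1.04, adjusted p = 0.244) and Oas3 (3.56 ± 1.10, adjusted p = 0.245). Slfn5, a Schlafen-family restriction factor, stood at 16.5 and 61.5 CPM in IL27v against 5.73 and 6.17 CPM in EV media. Rtp4, a receptor-transporting protein that also restricts RNA viruses, stood at 6.42 and 75.1 CPM in IL27v against 4.23 and 3.56 CPM in EV media. DESeq2 called 14 of the 39 (3.29% of all genes), including Slfn5, Rtp4, Oas3, Oas2, Ifi44, Ifit3, Zbp1 and Usp18. The value rested on 1 library: without IL27v media 2 the median was 0.46 with 29 genes positive, and without IL27v media 1 it was 3.41 with 39 positive. IL27v media 2 had the highest fibroblast sum of all libraries, 8461 CPM against 2067 in IL27v media 1. Its endothelial (23.4 CPM), keratinocyte (11.02) and epithelial (3.84) sums were the lowest of all. IL27v media 1 had 194, 72.4 and 16.7 CPM of these. The part of this make-up in the difference was not tested.

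Under the exposures the vector difference varied in sign. In docetaxel, where edgeR called 0.27% of all genes, 35 of the 39 genes were positive, the median was 0.62, 1 had p under 0.05 (10.0% of all genes) and none was called. For 22 genes (21.7% of all genes) both IL27v docetaxel libraries lay above both EV docetaxel libraries. Oas2 had the smallest p there (3.54 ± 1.38 SE, adjusted p = 0.37), followed by Oas1a (1.99 ± 1.21, adjusted p = 0.613) and Oas3 (1.67 ± 1.03, adjusted p = 0.616). In cabozantinib 36 genes were positive with a median of 1.03, 2 had p under 0.05 (5.46% of all genes) and none was called (0% of all genes), and 1 gene, Bst2, lay higher in both IL27v libraries than in both EV libraries, as 16.1% of all genes did (2.09 ± 0.86, adjusted p = 0.847 in edgeR). After Bst2 the smallest p there were those of Oas3 (2.21 ± 1.04, adjusted p = 0.907) and Irf7 (2.34 ± 1.26, adjusted p = 0.915). Without IL27v cabozantinib 2 the median there was -1.33, with 2 genes positive, and without IL27v cabozantinib 1 it was 1.91. In ex vivo IL-27, with a single IL27v library, 37 genes were positive with a median of 0.71, 0 had p under 0.05 (2.67% of all genes) and none was called by edgeR (0% of all genes). The smallest p in that condition was that of Ifi44 (2.43 ± 1.25, adjusted p = 1.00), at 10.9 CPM in IL27v against 1.41 and 2.61 CPM in EV, ahead of Ifit3b (2.36 ± 1.45, adjusted p = 1.00) and Ddx58 (1.00 ± 0.76, adjusted p = 1.00).

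In cabozantinib plus IL-27 the median vector difference was 0.22 with 28 genes positive, 1 had p under 0.05 (6.08% of all genes) and none was called, where edgeR called 0.00409% of all genes. Bst2 had the smallest p (2.33 ± 0.86 SE, adjusted p = 0.556), then Irf7 (1.66 ± 1.23, adjusted p = 0.952) and Mx2 (-1.10 ± 0.88, adjusted p = 0.952). Without EV cabozantinib plus IL-27 2 that median was 1.49 with 39 positive, without EV cabozantinib plus IL-27 1 it was -0.37 with 10 positive, and without IL27v cabozantinib plus IL-27 1 it was -0.08 with 17 positive. DESeq2 called 0 of the 39 for the vector in docetaxel, cabozantinib, IL-27 and cabozantinib plus IL-27, where its share over all genes is not given.

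Anti-PD-L1 was the condition in which IL27v lay below EV. Of the 39 genes 38 had a negative fitted difference, with a median of -1.24, and for 26 (15.6% of all genes) both IL27v libraries lay below both EV libraries. In this comparison 3 genes had p under 0.05 (3.41% of all genes), and none was called by edgeR (0% of all genes) or by DESeq2, whose share over all genes is not given. Mx1 had the smallest p (-3.12 ± 1.30 SE, adjusted p = 1.00), at 0.71 and 1.12 CPM in IL27v against 4.85 and 11.1 CPM in EV libraries. Herc6 followed (-1.51 ± 0.69, adjusted p = 1.00), at 2.05 and 4.21 CPM in IL27v against 7.03 and 10.8 CPM in EV. Cmpk2 came next (-3.02 ± 1.39, adjusted p = 1.00), at 0.80 and 1.98 CPM in IL27v against 3.53 and 19.0 CPM in EV. Bst2 was the positive exception. Without EV anti-PD-L1 2 the median was -0.62 and without IL27v anti-PD-L1 1 it was -0.72. EV anti-PD-L1 2 also held 744 CPM of the 12 macrophage and monocyte markers against 262 CPM in EV anti-PD-L1 1, and 465 against 1.60 CPM of the muscle markers; the part of either in the result was not tested.

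**Figure D5:**
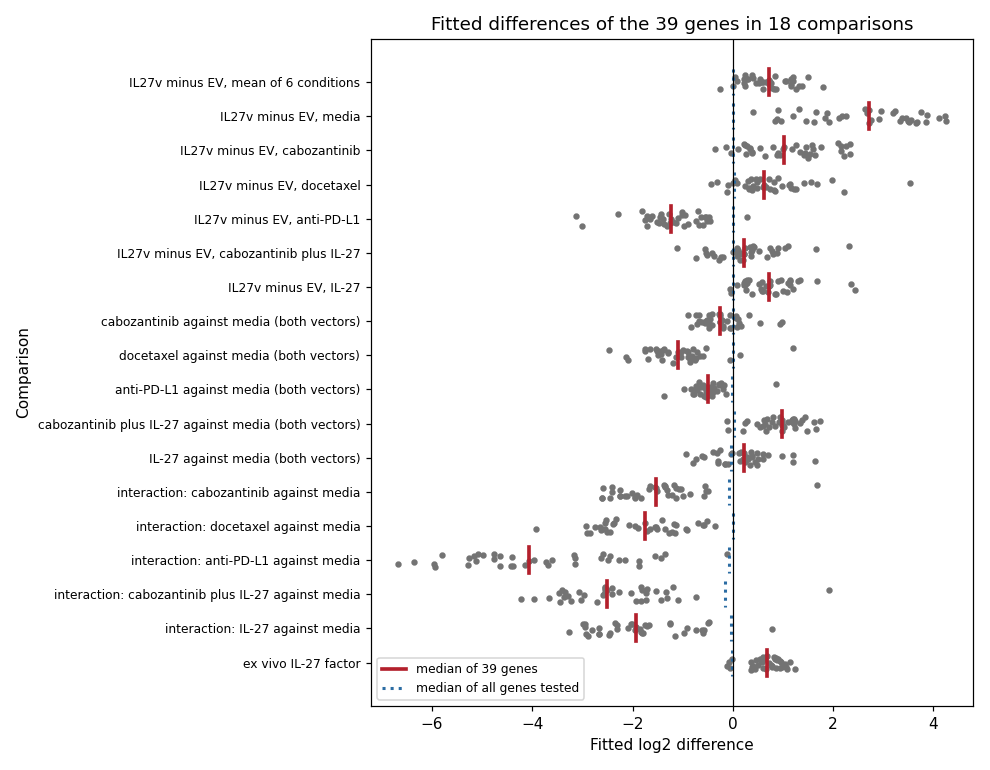
Each row is a comparison and each point the fitted log2 difference of 1 of the 39 genes, with a red bar at their median and a dotted blue bar at the median of all genes tested. The vector difference in media has the highest median (2.71) and the anti-PD-L1 interaction the lowest (-4.07).

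The second question was what each ex vivo exposure did relative to media, averaging the IL27v and the EV difference. All 5 exposures share the media libraries, so their values are not independent. Docetaxel had the most genes with a small unadjusted p of the 5 exposures. Of the 39 genes 37 had a negative fitted value with a median of -1.09, 13 had p under 0.05 (15.3% of all genes), all negative, and none was called by edgeR, in which 1.79% of all genes were called. DESeq2 called 3 (6.93% of all genes): Ifit2, Samd9l and Ifit3b. The IFIT genes had the lowest role median at -2.10. Ifit2 (-2.08 ± 0.64 SE, adjusted p = 0.112) stood at 11.9 and 17.8 CPM in IL27v docetaxel against 40.7 and 102 CPM in IL27v media, and at 0.57 and 16.1 CPM in EV docetaxel against 29.4 and 32.9 CPM in EV media, with no overlap under either vector. Samd9l (-1.20 ± 0.37, adjusted p = 0.119) stood at 23.8 and 38.99 CPM in IL27v docetaxel against 96.2 and 102 CPM in IL27v media, and at 42.6 and 18.5 CPM in EV docetaxel against 38.8 and 63.1 CPM in EV media, where the groups overlapped. Herc6 came next (-1.37 ± 0.48, adjusted p = 0.18). In IL27v tumours both docetaxel libraries lay below both media libraries for 14 genes (22.1% of all genes) and above for 0 (23.01%). In EV tumours they lay below for 8 (17.2%) and above for 3 (17.3%). Bst2 and Ifi27l2a were the exceptions, with fitted values of 1.20 and 0.15. Both are among the 16 genes with at least 50% GC, while Ifit2, Samd9l and Herc6 are among the other 23. All other genes of those 16 had negative fitted values. The slope of level on GC content was -0.80 to -0.15 log2 units per 10% GC in media libraries. It was -0.06 to 0.45 in docetaxel libraries. Removing a GC trend changed no call among the 39, and the part of GC content was not otherwise tested. Without IL27v media 2 the docetaxel median was -0.17 with 17 genes positive. Without EV docetaxel 2, which leaves EV docetaxel 1 as the only EV docetaxel library, the fitted value of Ifit2 was -4.03. Keratinocyte markers stood at 5061 and 5090.3 CPM in IL27v docetaxel against 72.4 and 11.02 CPM in IL27v media, and at 701 and 1874 CPM in EV docetaxel against 171 and 483 CPM in EV media, and the part of this in the difference was not tested.

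Cabozantinib alone gave a median of -0.25 with 29 genes negative, 1 with p under 0.05 (10.5% of all genes) and none called by edgeR (0% of all genes). The smallest p was that of Eif2ak2 (-0.72 ± 0.33 SE, adjusted p = 0.47), followed by Ddx58 (-0.84 ± 0.45, adjusted p = 0.49) and Bst2 (0.94 ± 0.59, adjusted p = 0.518). Without IL27v media 2 the median was 0.98 with 33 positive, without IL27v cabozantinib 1 it was 0.09 with 22 positive, and without IL27v cabozantinib 2 it was -1.39. Within EV tumours both cabozantinib libraries lay above both media libraries for 18 genes (14.1% of all genes) and below for 1 (13.4%). Anti-PD-L1 against media had a median of -0.50 with 38 genes negative, 0 with p under 0.05 (5.85% of all genes) and none called (0% of all genes). Herc6 had the smallest p (-0.97 ± 0.48, adjusted p = 0.865 in edgeR), then Zbp1 (-1.37 ± 0.86, adjusted p = 0.966) and Bst2 (0.87 ± 0.59, adjusted p = 0.989). The mean over both vectors joined unlike values. In IL27v tumours both anti-PD-L1 libraries lay below both media libraries for 15 genes (19.4% of all genes) and above for 0 (18.5%), in EV tumours they lay above for 35 (10.98%), and without IL27v media 2 the median was 0.53 with 34 positive. DESeq2 called 0 of the 39 in either comparison, where its share over all genes is not given.

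Ex vivo IL-27 entered in combination with cabozantinib and alone. Cabozantinib plus IL-27 against media had 37 positive genes and a median of 0.98, with 2 at p under 0.05 (4.47% of all genes). None was called by edgeR (0.00409% of all genes) or DESeq2 (share over all genes not given). The smallest p were those of Rtp4 (1.48 ± 0.68 SE, adjusted p = 0.882), Ifi44 (1.62 ± 0.76, adjusted p = 0.882) and Bst2 (1.23 ± 0.59, adjusted p = 0.882). Both libraries lay above both media libraries for 1 gene in IL27v tumours (21.3% of all genes) and for 32 in EV tumours (19.7%). Without EV cabozantinib plus IL-27 2 the median was 0.25, and without IL27v media 2 it was 2.16. IL-27 alone against media had 24 positive genes and a median of 0.22, with 1 at p under 0.05 (11.9% of all genes). None was called by edgeR (0% of all genes) or DESeq2 (share over all genes not given). Bst2 led it (1.64 ± 0.64, adjusted p = 0.336), ahead of Eif2ak2 (-0.73 ± 0.37, adjusted p = 0.452) and Samd9l (-0.61 ± 0.42, adjusted p = 0.537). Both EV IL-27 libraries lay above both EV media libraries for 24 genes (12.4% of all genes) and below for 1 (14.2%). Without IL27v media 1 the median was -0.16, and without IL27v media 2 it was 1.43, with Bst2 at 2.58. Without EV IL-27 2 the fitted values were 1.99 for Bst2 and -1.23 for Eif2ak2.

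The ex vivo IL-27 factor sets both conditions with IL-27 against the matching ones without it, over both vectors. It was positive for 35 of the 39 genes with a median of 0.68. The p was under 0.05 for 2 (4.31% of all genes), Bst2 (0.97 ± 0.43 SE, adjusted p = 1.00) and Irf9 (0.55 ± 0.26, adjusted p = 1.00), and no gene was called by edgeR (0% of all genes) or, among the 39, by DESeq2 (share over all genes not given). The next p was that of Oas3 (1.08 ± 0.52, adjusted p = 1.00). The factor's median became 1.45 when IL27v cabozantinib 2 was left out and 1.37 when IL27v media 2 was, both libraries in the arm without IL-27.

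The third question was whether an exposure acted differently under the vectors, asked as the interaction of exposure and vector. All 5 interactions had negative medians, and each subtracts the same vector difference in media. The lowest was that of anti-PD-L1. All 39 genes were negative with a median of -4.07, 31 had p under 0.05 (7.62% of all genes), and none was called by edgeR (0% of all genes). Herc6 (-3.69 ± 0.98 SE, adjusted p = 0.229), Ifi204 (-5.17 ± 1.46, adjusted p = 0.249) and Mx1 (-6.35 ± 1.84, adjusted p = 0.264) had the smallest p. Ifi204 stood at 8.20 and 22.2 CPM in IL27v anti-PD-L1 against 27.7 and 273 CPM in IL27v media, and at 22.1 and 77.7 CPM in EV anti-PD-L1 against 12.9 and 14.5 CPM in EV media. DESeq2 called 10 of the 39 here (1.88% of all genes), among them Herc6, Ifi204, Mx1, Cmpk2 and Ifit3b. The interaction median was -1.54 without IL27v media 2 and -3.34 without EV anti-PD-L1 2.

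The other interactions were closer to 0. For cabozantinib plus IL-27 the median was -2.50 with 38 genes negative and 11 at p under 0.05 (9.59% of all genes), and none of the 39 was called while edgeR called 1.46% of all genes, neutrophil and muscle markers (Ngp, Ltf, S100a9 and Actn3) among them. Ifi44 had the smallest p (-4.22 ± 1.55 SE, adjusted p = 0.286), then Herc6 (-2.41 ± 0.96, adjusted p = 0.364) and Ifi204 (-3.37 ± 1.42, adjusted p = 0.417). For docetaxel the median was -1.76 with 39 negative and 1 at p under 0.05 (6.15% of all genes), and none was called by edgeR (0.0205% of all genes). For cabozantinib it was -1.53 with 38 negative and 0 at p under 0.05 (7.66% of all genes), and none was called by edgeR (0.0205% of all genes). In docetaxel Herc6 (-2.61 ± 0.97, adjusted p = 0.661) led Ifit3 (-3.93 ± 1.90, adjusted p = 0.82) and Xaf1 (-2.63 ± 1.35, adjusted p = 0.826). In cabozantinib Herc6 (-1.94 ± 0.96, adjusted p = 0.679) led Parp14 (-2.26 ± 1.16, adjusted p = 0.708) and Rtp4 (-2.59 ± 1.36, adjusted p = 0.719). For IL-27 the median was -1.93 with 38 negative, 0 at p under 0.05 (4.14% of all genes) and none called (0% of all genes), and the smallest p were those of Slfn5 (-2.48 ± 1.29, adjusted p = 1.00), Herc6 (-1.95 ± 1.10, adjusted p = 1.00) and Parp14 (-2.35 ± 1.34, adjusted p = 1.00). Without IL27v media 2 the medians were -0.37 for cabozantinib plus IL-27, 0.27 for docetaxel, 0.56 for cabozantinib and 0.36 for IL-27. Without IL27v cabozantinib 2 the cabozantinib median was -4.03, and without EV cabozantinib plus IL-27 2 that of the combination was -0.96. DESeq2 called 0 of the 39 in these 4 interactions, where its share over all genes is not given.

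The number of calls changed with the filter on low counts. With the 33123 genes of an unfiltered fit, in which edgeR gave all genes 1 shared spread instead of a median of 5.75 prior degrees of freedom, calls among the 39 were 20 for the vector over all conditions (4.92% of all genes), 32 for the vector in media (3.43%), 22 for docetaxel against media (5.56%) and 32 for the anti-PD-L1 interaction (3.05%). The remaining vector comparisons had 7 (1.03%) in anti-PD-L1, 6 (1.23%) in cabozantinib, 3 (3.13%) in docetaxel, 2 (1.69%) in cabozantinib plus IL-27 and 2 (0.688%) in IL-27. Against media there were 10 (1.07%) for cabozantinib plus IL-27, 2 (3.3%) for IL-27, 1 (1.53%) for anti-PD-L1 and 0 (2.86%) for cabozantinib, and 7 (0.697%) for the IL-27 factor. The other interactions had 22 (3.85%) for cabozantinib plus IL-27, 11 (1.6%) for docetaxel, 8 (2.5%) for cabozantinib and 4 (0.791%) for IL-27. The medians of the fitted differences for the vector over all conditions and in media, docetaxel against media and the anti-PD-L1 interaction were 0.69, 2.70, -1.10 and -4.04 without the filter, against 0.71, 2.71, -1.09 and -4.07 with it.

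Ligands of the pathway were low or at 0. Of the 23 ligand genes listed, 12 had no count in any library, among them most of the interferon-alpha genes. Ifne, the epithelial type I interferon, was seen in 21 libraries and reached 1.13 CPM, in EV cabozantinib 2, and Ifnk, the keratinocyte type I interferon, was seen in 1 at 0.88 CPM, IL27v docetaxel 2. Ifnb1, the type I interferon made by most cells, was seen in 10 libraries and reached 0.53 CPM, in EV IL-27 1. Ifng, the T and NK cell interferon, was seen in 8 libraries and reached 0.66 CPM, in IL27v media 2. Il27 itself reached 0.32 CPM and its partner chain Ebi3 0.87 CPM. Of the 6 ligands that passed the filter, none was called by edgeR in any of the 18 comparisons.

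Of the receptor chains named here Ifnar1 varied least across libraries in proportion to its level. Ifnar1 lay between 57.0 and 83.5 CPM in IL27v and between 64.6 and 86.0 CPM in EV libraries, Ifnar2 between 28.9 and 60.6 CPM in IL27v and between 29.4 and 53.5 CPM in EV, and Il27ra, the IL-27 receptor chain, between 1.65 and 4.62 CPM in IL27v and between 2.05 and 5.46 CPM in EV. Socs1, a feedback inhibitor of JAK kinases, had a vector difference over the 6 conditions of 1.38 ± 0.39, adjusted p = 0.0712 in edgeR, and was at 5.71 CPM in IL27v docetaxel 1, above the 1.69 CPM of IL27v media 2. Of 13 genes of the nucleic acid sensing route that induces interferon, Irf3 alone was called in docetaxel against media (1.48 ± 0.35, adjusted p = 0.0393 in edgeR).

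Lists that overlap the programme in function were high in the same media library. The 35 matched family relatives of the 39 genes, such as further Slfn, Ifi200, Phf11 and Trim30 genes, summed in media to 239.5 and 1526 CPM in IL27v against 179 and 182 CPM in EV tumours. The 21 genes more typical of interferon-gamma summed to 537 and 2351 CPM in IL27v media against 619.8 and 434 CPM in EV media. Among them Cxcl9, a T-cell chemokine, stood at 1.49 and 46.1 CPM in IL27v media against 0.77 and 0.39 CPM in EV media, and Cxcl10 at 10.6 and 70.7 CPM against 19.8 and 13.6 CPM in the same groups. Iigp1, an immunity-related GTPase, was the 1 gene of this list called for the vector over all conditions (2.13 ± 0.54 SE, adjusted p = 0.0413 in edgeR), with 19 of the 21 positive. Of the 30 relatives tested, none was called there, 8 had p under 0.05 in edgeR and 25 were positive. In docetaxel against media 4 of the relatives and 6 of the interferon-gamma-typical genes were positive.

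Markers of immune cells were high in some of the highest libraries. The 9 NK markers summed to 83.0 CPM in IL27v media 2, 57.5 in IL27v IL-27 2 and 43.8 in EV cabozantinib plus IL-27 2, within a range of 1.51 to 83.0 CPM in IL27v and 2.41 to 43.8 CPM in EV libraries. Of these markers 5 were at 0 in IL27v cabozantinib 1 and 0 in IL27v media 2. Gzmb (granzyme B) made 45.6 CPM of the sum in IL27v media 2, and Ncr1, which defines NK cells, 1.39 CPM. The 12 macrophage and monocyte markers had sums of 917 CPM in IL27v cabozantinib 2 and 835 CPM in IL27v media 2, but of 367 and 336 CPM in IL27v and 229.9 and 375 CPM in EV libraries with cabozantinib plus IL-27. The 12 T-cell markers summed to 1.95 to 17.4 CPM in IL27v and 2.27 to 17.2 CPM in EV libraries. B-cell markers (6 genes) summed to 223 CPM in IL27v cabozantinib plus IL-27 1, 18.3 CPM in IL27v media 2 and 0.59 to 6.49 CPM in EV libraries. Dendritic cell markers (8 genes) summed to 10.7 to 31.8 CPM in IL27v and 14.1 to 36.9 CPM in EV libraries. Plasmacytoid dendritic cell markers (7 genes, Bst2 among them) summed to 69.7 to 137 CPM in IL27v and 65.6 to 98.7 CPM in EV libraries. Among IL27v libraries their sum was lowest in IL27v media 2. The part of these cells in the levels of the 39 genes was not tested. Libraries also differed in the slope of level on GC content, between -0.80 (IL27v media 1) and 0.68 (EV IL-27 1) log2 units per 10% GC. Relative to each gene's mean, the 16 genes of the set with at least 50% GC, Isg15, Irf7, Bst2 and Ifi27l2a among them, differed from the other 23 by a median of -0.99 log2 units in IL27v media 1 and 1.16 in EV IL-27 1.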

How the data were processed

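Bulk RNA of 23 tumour libraries was measured by stranded poly(A) sequencing (paired-end), with RNA integrity of at least 8, per the labels' protocols. Estimated counts for each Ensembl gene and library came as 1 table made by the authors. The tools cutadapt, HISAT2, StringTie and DESeq2 and the build GRCm38 are named per the submitters' processing notes; the order, versions, strand setting and handling of shared reads are not stated. The values were whole numbers, as deposited, but 31.7% to 35.3% of counts from 1 to 40 were multiples of 4 and 143 genes had the same nonzero value in every library, so a low count need not be a number of reads.

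From these counts edgeR 4.0.16 (R 4.3.3, limma 3.58.1) was run with TMM scaling, filterByExpr and the quasi-likelihood test on a mean for each of the 12 groups, leaving 11 residual degrees of freedom, a median prior of 5.75 and a biological coefficient of variation of 0.62. Benjamini-Hochberg adjustment ran over all 24440 genes tested, at a threshold of 0.05. The group with 1 library is assumed to vary like the others. The fit was tested on simulated data with known changes. Heatmap values are log2(CPM + 0.5). Promoter sequences are RefSeq's (GRCm38.p6).

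Alternatives were DESeq2 1.42.0, RLE and upper-quartile scaling, no filter, at least 1 CPM in 4 libraries, the replicate number as a block, an additive model with and without the muscle markers as covariate, counts divided by 4, and each library left out in turn. The library-set term and the removal of a GC trend were chosen after seeing the data.

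Symbols came from GENCODE vM21 for 55141 identifiers, with 260 unmatched. The table had 0 columns of other samples. The members, lists and tests were chosen with earlier results of these data known. Full statistics were given for the 3 members with the smallest p in each comparison where none was called, and values by library for a preset choice of 1 or more members per role (design rule); other members are described by range. Markers, Gzmb, Ncr1, Ebi3 and Il27 were named after their values were seen. 1 gene of the pathway is not reported here.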

Additional observations from a re-analysis of the deposited data

How the results depend on the processing

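Across 18 comparisons and 34 alternatives, 40 counts of calls or medians moved by over 1.5 times (counts) or by over 1.12 log2 units (medians, 1 SD between replicates), and 1125 did not. Smaller moves could still change a median's sign: 14 did so, 9 of them within that bound. Removing the filter raised the calls among the 39 genes, each 0 with it (in brackets the share of all genes called), to 20 (4.92%) for the vector over all conditions, 32 (3.43%) in media, 7 (1.03%) in anti-PD-L1, 6 (1.23%) in cabozantinib, 3 (3.13%) in docetaxel, 2 (1.69%) in cabozantinib plus IL-27 and 2 (0.688%) in IL-27. Against media it gave 22 (5.56%) for docetaxel, 1 (1.53%) for anti-PD-L1, 10 (1.07%) for cabozantinib plus IL-27, 2 (3.3%) for IL-27 and 7 (0.697%) for the IL-27 factor, and for interactions 32 (anti-PD-L1, 3.05%), 22 (cabozantinib plus IL-27, 3.85%), 11 (docetaxel, 1.6%), 8 (cabozantinib, 2.5%) and 4 (IL-27, 0.791%). That fit estimated no gene-wise spread apart from the shared one. DESeq2 called 4 (8.03%) for the vector over all conditions, 14 (3.29%) in media, 3 (6.93%) for docetaxel against media and 10 (1.88%) for the anti-PD-L1 interaction. No setting other than these and the left-out libraries changed a count of calls, and none of the others turned a named gene.

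Each library was left out in turn (23 fits). The median vector difference was 0.46 to 3.41 in media, -1.33 to 1.91 in cabozantinib and -0.37 to 1.49 in cabozantinib plus IL-27. Against media it was -1.39 to 0.98 for cabozantinib, -0.86 to 0.53 for anti-PD-L1, 0.25 to 2.16 for cabozantinib plus IL-27 and -0.16 to 1.43 for IL-27. The interaction medians were -4.03 to 0.56 for cabozantinib, -2.52 to 0.27 for docetaxel, -4.70 to -1.54 for anti-PD-L1, -3.13 to -0.37 for cabozantinib plus IL-27 and -2.74 to 0.36 for IL-27. The vector difference in cabozantinib ran -0.47 to 3.09 for Oas3 and -1.86 to 3.30 for Irf7, lowest without IL27v cabozantinib 2. That of Mx2 in the combination ran -1.73 to 0.022, highest without EV cabozantinib plus IL-27 2. Zbp1 in anti-PD-L1 against media ran -1.86 to 0.45 and the cabozantinib interaction of Rtp4 -5.09 to 0.075, both highest without IL27v media 2. The cause of these changes was not tested.

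Replicate numbers are shared between groups, and the labels do not say whether they pair libraries. Of 55 correlations of deviations between same-numbered libraries, 9 were over 0.1 (range -0.34 to 0.30). These cannot settle pairing, since libraries also differed in tissue content. With the replicate block the vector median over all conditions was 0.50, against 0.71 without it, and no call changed. It was 0.75 in the additive model, 0.87 with the library-set term and -0.07 with the muscle covariate, which largely followed the vector. IL-27 against media was -0.26 in the additive model and -0.20 with the muscle covariate, against 0.22, and cabozantinib against media was 0.53 with the library-set term, against -0.25. The other sign changes came with a left-out library and lie in the ranges above. With a gap of 2 or 3 bases the promoter letters occurred in 18 members, and the gaps between replicates moved by less than the same bound under other scaling, pseudocounts and without near-identical copies. Groups of at most 2 libraries and low counts limit the precision.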
